A study of Arabidopsis thaliana with 8 samples.

Results

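The genes described here are Arabidopsis thaliana transcription factor genes that carry the name of their protein family in their symbol, such as BZIP61 or WRKY6. A probe set was taken where the annotation gave it exactly 1 gene whose symbol was bHLH, bZIP, MYB, NAC, WRKY, ERF, HB, DOF, GATA, TCP or SPL directly followed by digits, and 2 WRKY genes, WRKY53 and WRKY22, were left out by the rule. This gave 25 genes, each with 1 probe set, of 13356 genes named in this way on the chip and of 22746 probe sets tested. They were 14 bZIP, 5 bHLH and 4 WRKY genes with 1 NAC and 1 TCP gene. The other 6 family names had 0 genes by this rule. The rule read only names and no measured value, but the genes were chosen with earlier results of these data known. None of the 25 symbols is known to stand for a protein outside its family, so each was counted in it.

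RNA came from leaves of 5-week-old plants of ecotype Col-0 grown at 21 °C under short days (10 h light, 14 h dark) from seed kept for 2 days in the dark at 4 °C, and it was hybridised to Affymetrix ATH1 arrays, 2 for each of 4 groups. The groups were systemic leaves of dTLec1-1, control leaves of dTLec1-1, systemic leaves of the wild type and control leaves of the wild type, all taken 2 h after some of the rosette leaves of each plant line had been crushed across the midvein with tweezers. Systemic leaves are, in usual terms, the unwounded leaves of a wounded plant. The line dTLec1-1, called dTLec here, is a single SALK insertion line in Col-0, and the labels neither name the interrupted gene nor say whether control leaves came from unwounded plants or whether replicates came from separate plants, so the p-values rest on a spread that may be technical.

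Each family is defined by the domain with which its proteins grip DNA. The bZIP and bHLH proteins bind as dimers, through a leucine zipper or a helix-loop-helix, and their partners change which genes they control. WRKY proteins bind W-box elements and are known from defence, senescence and nutrient responses, NAC proteins from stress and ageing, and TCP proteins from growth of leaves. Wounding quickly raises jasmonate in distant leaves, and many genes of such families are known to respond to it.

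On the deposited log2 scale the levels of these genes, as means over the 8 arrays, ran from 3.92 for bZIP58 to 9.89 for BZIP53, with a median of 6.20 against 5.85 for all probe sets tested. Levels of different probe sets are given to place each gene within the range of the chip, since probes differ in brightness and such values are not comparable amounts of RNA. Of the 25 genes, 10 lay below the median level of all probe sets. The leaf label was checked with photosynthesis markers, of which 3 of 25 listed were measured by name. These were RCA (13.67), LHCB4.1 (13.96) and LHCB4.2 (13.74), at the top of the range on every array. SHT, from the list of pollen markers, stood at 3.84, and 1 such gene does not show that other tissues were absent. No listed root, seed, guard cell or vascular marker was measured by name. The array medians lay between 5.82 and 5.86, and r between replicate arrays was 0.992 to 0.996 over the probe sets, as a description. With 2 arrays per group, the number of arrays limits the precision of every difference. Each SE below comes from limma's moderated fit, with a spread pooled over all 8 arrays, and n gives the arrays per group.

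**Figure D1:**
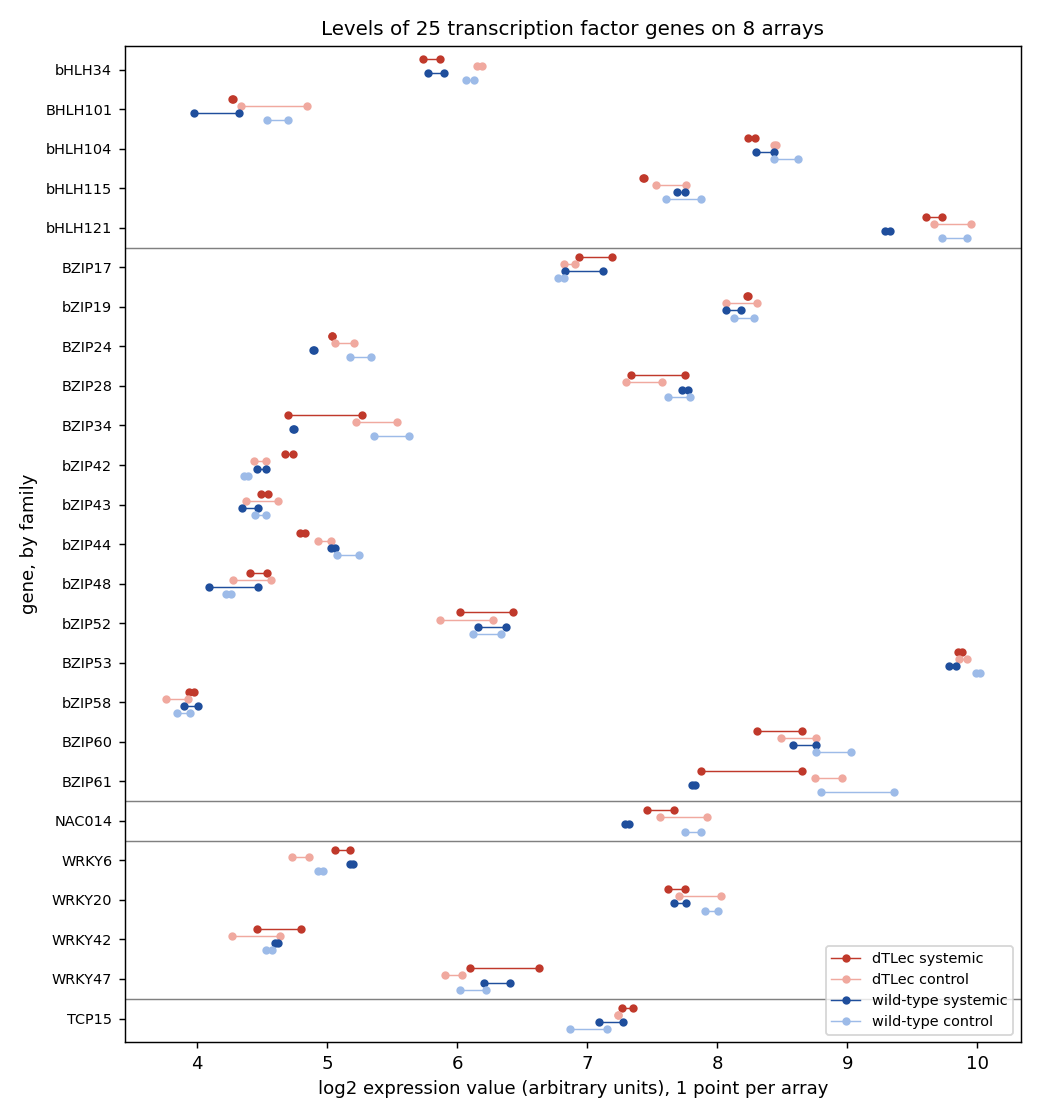
Log2 expression value (x axis) of the 25 genes (y axis, grouped by family), with 1 point per array and a line joining the 2 arrays of a group. BZIP61 shows the widest separation of groups, with wild-type systemic leaves at 7.81 and 7.83 and wild-type control leaves at 8.80 and 9.36.

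Most of these genes differed little between the groups. The gap between the highest and the lowest of the 4 group means had a median of 0.32 on the log2 scale, against 0.24 for all probe sets, and it exceeded 0.5 in 4 of the 25 genes (16%), against 17.5% of all probe sets. The 4 genes were BZIP61 (1.26), BZIP34 (0.75), bHLH121 (0.52) and NAC014 (0.51). In each of them the wild-type systemic leaves had the lowest group mean and the wild-type control leaves the highest.

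In systemic leaves of dTLec, 0 of the 25 genes passed an adjusted p of 0.05 in limma's moderated test against dTLec control leaves, where 0.668% of all probe sets did, and 3 had an unadjusted p under 0.05 (12%, against 16.5% of all probe sets). Both systemic arrays lay below both control arrays in 7 genes and above them in 6, against 25.4% and 21.7% of all probe sets. The median log2 difference was −0.02 over the 25 genes and −0.01 over all probe sets.

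In systemic leaves of the wild type, 3 genes fell relative to control leaves, namely BZIP61, bHLH121 and BZIP24, and none rose. That is 12% of the 25, where 11.9% of all probe sets passed at this threshold (6.03% as decreases). The share of 12% lies at the background of both directions together. After cyclic loess scaling 2 of the 25 passed as decreases (BZIP24 and BZIP61), against 4.63% of all probe sets. In the main fit 9 of the 25 had an unadjusted limma p under 0.05 (36%, against 25.1% of all probe sets). The difference between replicate numbers had been removed from the deposited values, and with the replicate number as a block, which takes account of this, 1 of the 25 passed (BZIP61), against 7.02% of all probe sets. Without either of the wild-type systemic arrays 0 passed, and without wild-type control replicate 2 only bHLH121 did. Both systemic arrays lay below both control arrays in 12 of the 25 genes and above them in 4, against 29.5% and 22.4% of all probe sets. The median log2 difference was −0.08 over the 25 genes and −0.02 over all probe sets. In whole leaves, a lower value can mean fewer cells of a type or less RNA per cell, which cannot be told apart.

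The sign of the response was the same in both genotypes for 23 of the 25 genes (92%), against 63.6% of all probe sets, and bZIP19 and bZIP43 were the exceptions. After cyclic loess scaling the signs also differed in bHLH115 (0.04 in the wild type, −0.17 in dTLec) and in BZIP53 (−0.15 and 0.03). The count of 23 thus depends on small values and on the scaling. The arrays of the 2 responses are different ones, and genes of a family are not independent of each other, so this count is a description.

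**Figure D2:**
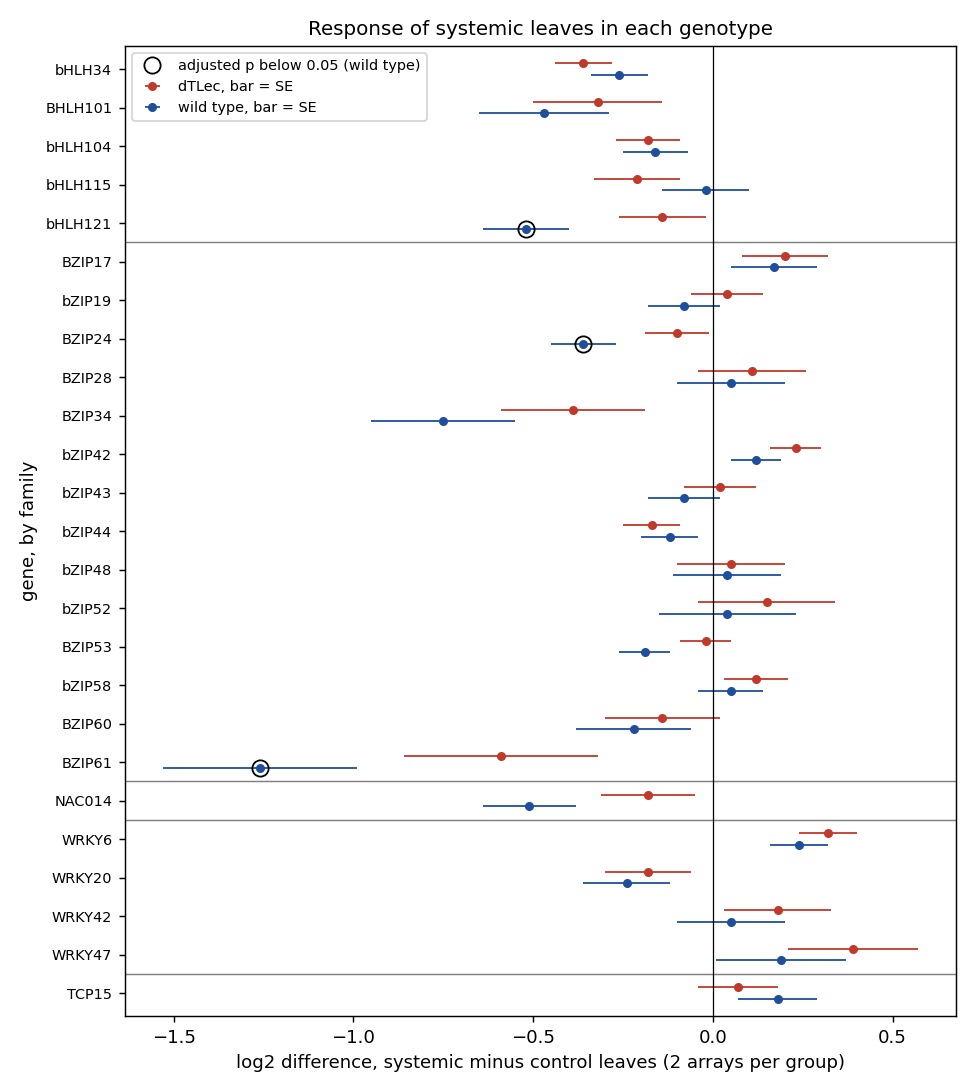
Log2 difference between systemic and control leaves (x axis, 2 arrays per group) for each of the 25 genes (y axis, by family), with dTLec drawn above the wild type and bars for the standard error. Circles mark BZIP61, bHLH121 and BZIP24, the 3 genes that passed in the wild type, and no dTLec value passed.

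The bZIP genes gave both the widest and the narrowest gaps between group means. BZIP61 (AT3G58120) and BZIP34 (AT2G42380) are close relatives, and BZIP34 is known from pollen development. In dTLec, BZIP61 stood at 8.65 and 7.88 in systemic leaves, against 8.75 and 8.96 in control leaves, a log2 difference of −0.59 ± 0.27 that did not pass (SE, n = 2, limma adjusted p 0.332). One systemic array of dTLec was thus close to the controls and the other close to the wild-type systemic arrays. In the wild type it stood at 7.81 and 7.83 in systemic leaves, against 8.80 and 9.36 in control leaves. These groups did not overlap, and the systemic arrays differed by far less than the control arrays did. The fall was 2.39-fold, or −1.26 ± 0.27 as a log2 difference (SE, n = 2; limma gave an adjusted p of 0.0259, and 0.039 with the replicate block). The alternative settings counted below for single genes include averaging probe sets and the annotation's own symbols, which could change nothing. BZIP61 had the largest change of the 25 genes and the only one past 2-fold in this comparison. Over 16 alternative settings its fall in the wild type lay between −1.54 and −0.98, and it passed in 13, with adjusted p up to 0.12 (limma).

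BZIP34 had lower values than BZIP61 and the same order of groups. Its log2 values in dTLec were 5.27 and 4.70 in systemic leaves, against 5.22 and 5.54 in control leaves. In the wild type they were 4.75 and 4.74 in systemic leaves, against 5.36 and 5.63 in control leaves. Only the wild-type groups were free of overlap. The log2 differences were −0.39 ± 0.20 in dTLec (SE, n = 2, limma adjusted p 0.378) and −0.75 ± 0.20 in the wild type (0.0526), neither past the threshold. The difference between replicate numbers had been removed from the deposited values, which ties the 4 groups' replicate differences to each other. With that limit, in dTLec systemic leaves and in both control groups the replicate higher in BZIP61 was also the one higher in BZIP34. Neither probe set has the suffix that marks probes shared between genes, nor has any other of the 25, but a cross-reaction between these relatives was not tested.

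The other bZIP gene that fell was BZIP24 (AT3G51960), known as a regulator of salt responses. In dTLec the values were 5.04 and 5.04 in systemic leaves, against 5.06 and 5.21 in control leaves, a difference of −0.10 ± 0.09 (SE, n = 2, limma adjusted p 0.61). It had 4.89 and 4.90 in wild-type systemic leaves, against 5.34 and 5.18 in wild-type control leaves, a difference of −0.36 ± 0.09 (adjusted p 0.0392, and 0.113 with the replicate block). This call was the least stable of the 3, passing in 4 of 15 alternative settings, with adjusted p up to 0.167. Its relative bZIP19, an activator of zinc-deficiency genes, stayed between 8.07 and 8.31 on all 8 arrays, with differences of 0.04 ± 0.10 in dTLec and −0.08 ± 0.10 in wild-type leaves.

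The known regulators of the unfolded protein response among the 25 were BZIP17 and BZIP28, which are released from the endoplasmic reticulum membrane, and BZIP60, whose messenger RNA is spliced under stress. None of the 3 passed in either genotype. BZIP17 had 6.94 and 7.19 in dTLec systemic leaves, against 6.82 and 6.91 in dTLec control leaves, and 7.12 and 6.83 in wild-type systemic leaves, against 6.82 and 6.78 in wild-type control leaves. The differences for BZIP28 were 0.11 ± 0.15 in dTLec and 0.05 ± 0.15 in the wild type, and those for BZIP60 were −0.14 ± 0.16 and −0.22 ± 0.16 (SE, n = 2). The 3 genes thus had no common direction. The array reads the total RNA of each gene and not splicing or release of the protein.

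BZIP53 and bZIP44 belong to a subgroup known for low-energy and sucrose signalling. BZIP53, the brightest of the 25 genes, had 9.88 and 9.85 in dTLec systemic leaves, against 9.92 and 9.86 in dTLec control leaves, a difference of −0.02 ± 0.07. It had 9.78 and 9.84 in wild-type systemic leaves, against 9.99 and 10.02 in wild-type control leaves. These wild-type arrays did not overlap, yet the difference of −0.19 ± 0.07 did not pass (SE, n = 2, limma adjusted p 0.131). For bZIP44 the differences were −0.17 ± 0.08 in dTLec and −0.12 ± 0.08 in the wild type. Their relatives bZIP42, bZIP43, bZIP48 and bZIP58 lay between 3.92 and 4.52 as means over the 8 arrays, near the lower end of the chip's range. Of these, bZIP42 had the largest differences, 0.23 ± 0.07 in dTLec and 0.12 ± 0.07 in the wild type, and neither passed (adjusted p 0.193 and 0.379, limma). Those of bZIP43, bZIP48 and bZIP58 lay between 0.02 and 0.12 in dTLec and between −0.08 and 0.05 in the wild type. The last bZIP gene, bZIP52, differed by 0.15 ± 0.19 in dTLec and by 0.04 ± 0.19 in the wild type.

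The 5 bHLH genes belong to 1 known pathway, the response to iron deficiency. The related proteins bHLH34, bHLH104 and bHLH115 activate genes of small bHLH proteins such as BHLH101, and bHLH121 is a partner of the first 3. All 5 had negative differences in both genotypes, between −0.36 and −0.14 in dTLec and between −0.52 and −0.02 in the wild type, where 52.5% and 55.6% of all probe sets were negative. Their medians, −0.21 (dTLec) and −0.26 (wild type), compare with −0.01 and −0.02 over all probe sets. The negative sign of bHLH115 in the wild type depended on the scaling. Its difference there was −0.02 on the deposited values, 0 after median centring and 0.04 after cyclic loess. None of the 5 passed in dTLec, and bHLH121 passed in the wild type.

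The bHLH121 gene (AT3G19860) had log2 values of 9.73 and 9.61 in dTLec systemic leaves, against 9.67 and 9.95 in dTLec control leaves, and these arrays overlap, with a difference of −0.14 ± 0.12 (SE, n = 2, limma adjusted p 0.609). In the wild type it had 9.29 and 9.33 in systemic leaves, against 9.92 and 9.73 in control leaves. It fell 1.43-fold there, by −0.52 ± 0.12 on the log2 scale (adjusted p 0.0298, and 0.0677 with the replicate block). Its 2 wild-type systemic arrays lay below the other 6 arrays. The call held in 11 of 16 alternative settings, with adjusted p up to 0.132.

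In bHLH34 (AT3G23210) both genotypes showed the difference. It had 5.74 and 5.87 in dTLec systemic leaves, against 6.15 and 6.19 in dTLec control leaves, and 5.90 and 5.78 in wild-type systemic leaves, against 6.13 and 6.07 in wild-type control leaves. All 4 systemic arrays lay below all 4 control arrays. The single responses, −0.36 ± 0.08 in dTLec and −0.26 ± 0.08 in the wild type, did not pass (SE, n = 2, limma adjusted p 0.108 and 0.0927).

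BHLH101, one of the dim genes, had 4.28 and 4.27 in dTLec systemic leaves, against 4.34 and 4.85 in dTLec control leaves, and 4.32 and 3.98 in wild-type systemic leaves, against 4.70 and 4.54 in wild-type control leaves. Its differences were −0.32 ± 0.18 in dTLec and −0.47 ± 0.18 in the wild type, and neither passed. The differences of bHLH104 were −0.18 ± 0.09 in dTLec and −0.16 ± 0.09 in the wild type, and those of bHLH115 were −0.21 ± 0.12 in dTLec and −0.02 ± 0.12 in the wild type.

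Of the 4 WRKY genes, 3 had positive differences in both genotypes, and they are the related WRKY6, WRKY42 and WRKY47. WRKY6 (AT1G62300), known from senescence, defence and phosphate signalling, had 5.06 and 5.18 in dTLec systemic leaves, against 4.86 and 4.73 in dTLec control leaves, and 5.20 and 5.18 in wild-type systemic leaves, against 4.93 and 4.97 in wild-type control leaves. Each systemic array lay above each control array. The responses were 0.32 ± 0.08 in dTLec and 0.24 ± 0.08 in the wild type (SE, n = 2, limma adjusted p 0.129 and 0.11). WRKY47 had 6.10 and 6.63 in dTLec systemic leaves, against 6.04 and 5.91 in dTLec control leaves, a difference of 0.39 ± 0.18. In the wild type it had 6.41 and 6.21 in systemic leaves, against 6.22 and 6.02 in control leaves, a difference of 0.19 ± 0.18. WRKY42, a regulator of phosphate transport, differed by 0.18 ± 0.15 in dTLec and by 0.05 ± 0.15 in the wild type. WRKY20, of another WRKY group, had the opposite sign, with −0.18 ± 0.12 in dTLec and −0.24 ± 0.12 in the wild type. None of the 4 passed in a single genotype.

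The NAC and TCP families had 1 gene each, which stand for themselves and not for their families. NAC014 (AT1G33060) had 7.67 and 7.46 in dTLec systemic leaves, against 7.56 and 7.92 in dTLec control leaves, a difference of −0.18 ± 0.13. It had 7.32 and 7.29 in wild-type systemic leaves, against 7.88 and 7.75 in wild-type control leaves, a difference of −0.51 ± 0.13 just outside the threshold (SE, n = 2, limma adjusted p 0.0511). TCP15, a factor known from cell division and leaf growth, had 7.35 and 7.27 in dTLec systemic leaves, against 7.24 and 7.24 in dTLec control leaves, and 7.28 and 7.09 in wild-type systemic leaves, against 6.87 and 7.15 in wild-type control leaves. It differed by 0.07 ± 0.11 in dTLec and by 0.18 ± 0.11 in wild-type leaves, and neither value passed.

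Averaged over both genotypes, 12 genes had an unadjusted limma p under 0.05 between leaf types (48%, against 28.2% of all probe sets). At the adjusted threshold 6 genes passed between systemic and control leaves, 5 lower and 1 higher. That is 24% of the 25 against 14.1% of all probe sets (limma), 7.61% lower and 6.5% higher. The 5 that fell were BZIP61 (−0.92 ± 0.19, adjusted p 0.02), BZIP34 (−0.57 ± 0.14, 0.0366), bHLH121 (−0.33 ± 0.08, 0.0394), bHLH34 (−0.31 ± 0.06, 0.0147) and BZIP24 (−0.23 ± 0.06, 0.0485), and WRKY6 rose (0.28 ± 0.06, 0.0194), each with 4 arrays per leaf type. The 4 systemic and 4 control arrays did not overlap in bHLH34, BZIP61, BZIP24 and WRKY6, nor in bHLH104 and BHLH101, which did not pass. That made 6 of the 25 genes without overlap, against 14.3% of all probe sets. With the replicate block only BZIP61 of the 25 passed (adjusted p 0.0305), against 8.19% of all probe sets, and the adjusted p of the other 5 lay between 0.0518 and 0.132. Leaving out wild-type systemic replicate 2 or dTLec control replicate 2 gave 0 genes. With wild-type systemic replicate 1 left out 1 gene passed (bHLH34), and with dTLec systemic replicate 2 left out 2 did (bHLH34 and BZIP61). This mean effect uses the same arrays as the responses of each genotype and is not further evidence for them.

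**Figure D3:**
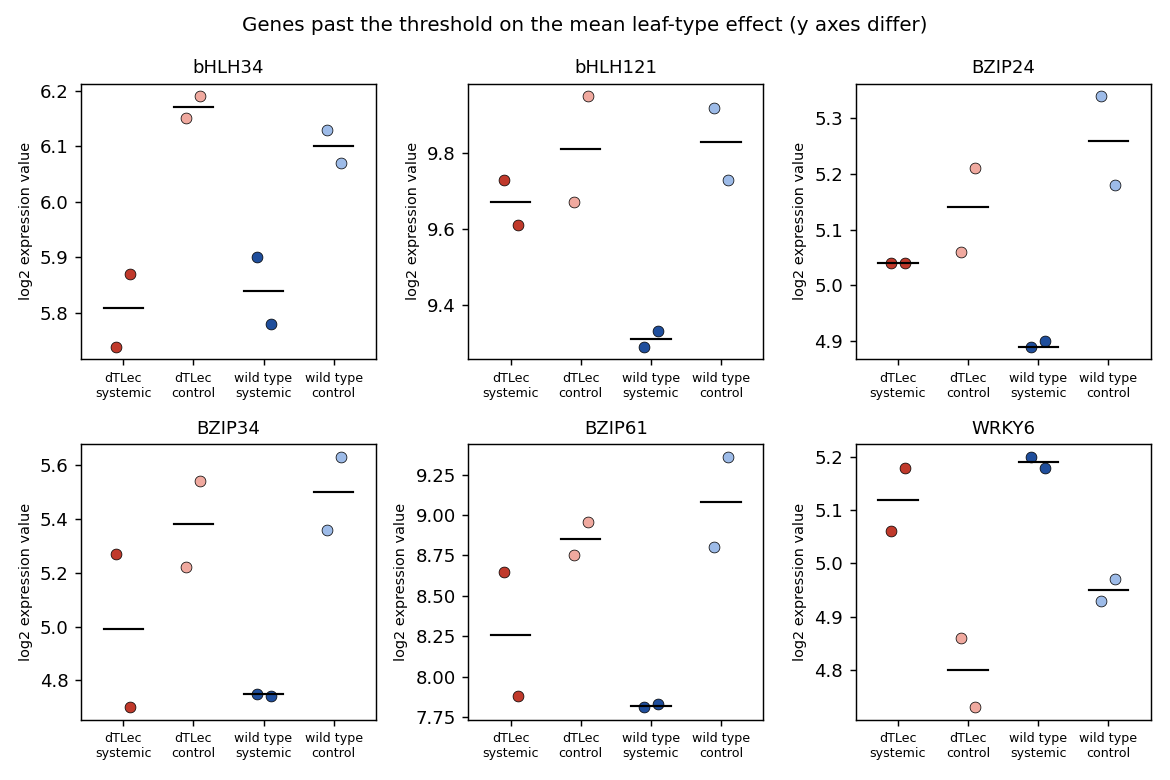
Log2 expression value (y axis, a separate scale per panel) of the 6 genes that passed on the mean leaf-type effect, by group (x axis), with 1 point per array and a bar at the group mean. BZIP61, BZIP34, bHLH121 and BZIP24 have their lowest group mean in wild-type systemic leaves, bHLH34 is low in systemic leaves of both genotypes, and WRKY6 is high in both.

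The difference of the responses, dTLec minus wild type, asked which of these genes responded differently in dTLec, and 0 of the 25 passed, against 0.0044% of all probe sets (limma, with 0 of the 25 at an unadjusted p under 0.05, against 11.2% of all probe sets). The largest was that of BZIP61, 0.67 ± 0.38 with a 95% interval from −0.22 to 1.56, and the adjusted p was 0.565. That of bHLH121 was 0.38 ± 0.16, with an unadjusted limma p of 0.0502, and that of BZIP24 0.26 ± 0.12, with 0.0717. NAC014 and BZIP53, also among the 5 smallest p, differed by 0.34 ± 0.19 and 0.17 ± 0.10. A weaker fall in dTLec than in the wild type was therefore not shown for these genes, and the intervals do not show equal responses either. These intervals come from the fit without the replicate block and are too narrow. The difference was positive in 20 of the 25 genes, 13 of the 14 bZIP genes among them, against 52.4% of all probe sets. For a gene that fell in both genotypes, a positive difference is a smaller fall in dTLec. It is a more positive value in dTLec for WRKY6, WRKY42, WRKY47, BZIP17, BZIP28, bZIP42, bZIP48, bZIP52 and bZIP58. In bZIP19 and bZIP43 the sign changed. Between genotypes, 10 of the 14 bZIP genes were lower in dTLec in control leaves (47.3% of all probe sets). In systemic leaves 10 of the 14 were higher in dTLec (55.7% of all probe sets). The difference of the responses is the genotype difference in systemic leaves minus that in control leaves. These counts are therefore its parts and not further evidence.

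Between the genotypes, 0 of the 25 genes passed in control leaves, as did 0% of all probe sets (limma, with 0 of the 25 at an unadjusted p under 0.05, against 9.25% of all probe sets). The 5 smallest p were those of bZIP44, TCP15, WRKY6, BZIP60 and BZIP28, with dTLec minus wild-type differences of −0.18 ± 0.08, 0.23 ± 0.11, −0.15 ± 0.08, −0.27 ± 0.16 and −0.27 ± 0.15 (SE, n = 2 arrays per group). The adjusted p of these lay between 0.57 and 0.649 (limma). Their arrays did not overlap between the genotypes in control leaves. Over the 25 genes, 9 had arrays without overlap, 4 higher and 5 lower in dTLec, against 20.7% and 17.3% of all probe sets.

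In systemic leaves the genotypes differed at 5.53% of all probe sets and at 0 of the 25 genes (limma), with 4 at an unadjusted p under 0.05 (16%, against 23.2% of all probe sets). These were bHLH121, higher in dTLec by 0.36 ± 0.12, bZIP42, higher by 0.22 ± 0.07, bZIP44, lower with −0.23 ± 0.08, and bHLH115, lower with −0.29 ± 0.12, with adjusted p between 0.119 and 0.19. bHLH115 had 7.43 and 7.44 in dTLec systemic leaves, against 7.75 and 7.69 in wild-type systemic leaves. bZIP42 had 4.74 and 4.68, against 4.53 and 4.46, and bZIP44 had 4.79 and 4.83, against 5.03 and 5.06. Each of the 4 had arrays without overlap, as had 11 of the 25 genes, 8 higher and 3 lower in dTLec, against 30.8% and 24% of all probe sets. NAC014 had the fifth smallest p, with a difference of 0.26 ± 0.13. BZIP61 differed by 0.44 ± 0.27, and its 95% interval ran from −0.19 to 1.07.

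The mean effect of the genotype, over both leaf types, also gave 0 of the 25 genes, against 3.89% of all probe sets (limma, with 3 at an unadjusted p under 0.05, against 22.3%). The 3 were bZIP44 (−0.21 ± 0.06, adjusted p 0.0986), bZIP42 (0.16 ± 0.05, 0.124) and bHLH115 (−0.20 ± 0.08, 0.217), followed by TCP15 (0.18 ± 0.08) and BZIP28 (−0.24 ± 0.11). In none of the 25 genes did all 4 dTLec arrays lie to 1 side of all 4 wild-type arrays, against 8.12% of all probe sets.

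Set side by side on the deposited values, the bHLH genes lay below 0, the WRKY genes mostly above it and the bZIP genes around it. The wild-type value of bHLH115, −0.02, changed sign after cyclic loess. In dTLec the median log2 difference was −0.21 for the 5 bHLH genes, 0.03 for the 14 bZIP genes and 0.25 for the 4 WRKY genes, and in the wild type it was −0.26, −0.08 and 0.12. Of the 14 bZIP genes 8 were positive in dTLec and 6 in the wild type. These are descriptions of small sets with no test of a family.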

How the data were processed

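The submitters hybridised biotin-labelled RNA (from 10 µg of total RNA) to ATH1 arrays. The authors deposited 1 log2 value per probe set and array, already normalized. RMA and Partek are named per the submitters' processing notes, with versions and settings not given in the sources used here. The log2 scale was read from the values, which run from 3.24 to 14.28.

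The 64 control probe sets among the 22810 were dropped. Gene names came from the platform annotation and, through gene identifiers, from the RefSeq table of TAIR10.1, which gave 1 gene for 13513 probe sets, several for 503 and none for 8730. Genes without such a name are not analysed here, and no coordinates are given because no build is named for the values.

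Groups came from sample titles. Group means were modelled on all 8 arrays and all 22746 probe sets with limma 3.58.1 in R 4.3.3 (4 residual degrees of freedom, 3.124 from the prior), with 7 two-sided comparisons and Benjamini-Hochberg adjustment over all probe sets at 0.05. Averaged over the 4 groups, the arrays numbered 1 and those numbered 2 were equal at 100% of probe sets (within 0.001). The difference between replicate numbers had thus been removed from the deposited values. The p-values without a block are therefore too small, as are the SEs, all of which come from the fit without it. The block leaves 3 residual degrees of freedom. The same-numbered arrays' deviations correlated with r between −0.579 and −0.132, as such a removal imposes, so they cannot show whether the numbers pair the samples.

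Named were the genes past the threshold per comparison, or the 5 with the smallest p where fewer than 5 passed, the brightest and the extreme responses of each family, and fixed lists of known regulators. The other members are named with their values to account for all 25. The genes, lists and tests were chosen with earlier results of these data known. The model was tested on simulated data without a removed replicate difference, so that test does not show whether the p-values here are right. A list of other factor families and 1 of the listed pollen markers are not reported here.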

Additional observations from a re-analysis of the deposited data

How the results depend on the processing

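In the wild-type response, 3 genes passed, and with the replicate block 1 passed. On the mean leaf-type effect the numbers were 6 and 1. With any single array left out, the count lay between 0 and 3 for the wild-type response and between 0 and 7 for the mean leaf-type effect. For the wild type it was 0 when either wild-type systemic array was left out, and 1 (bHLH121) when wild-type control replicate 2 was. For the mean effect it was 0 without wild-type systemic replicate 2 or dTLec control replicate 2, 1 without wild-type systemic replicate 1 (bHLH34) and 2 without dTLec systemic replicate 2 (bHLH34 and BZIP61). Fewer arrays were in each of these fits. Under median centring, cyclic loess, leaving out dim probe sets, a trended and robust prior, the compared arrays only, averaging probe sets and the annotation's own symbols, the counts were 2 to 4 and 4 to 7, and fitting the compared arrays only does not apply to the mean effect. The last 2 could change nothing, since each gene had 1 probe set and the same symbol. Each gene that passed therefore passed in these 2 as well, and the counts of settings per gene include them. The other 5 comparisons had 0 genes past the threshold under each alternative. BZIP61 passed in the wild type in 13 of 16 settings, bHLH121 in 11 of 16 and BZIP24 in 4 of 15. BZIP24, BZIP34 and WRKY6 fell below the brightness filter, so that setting has no value for them. Every gene that passed kept its direction in each setting run. Some genes passed only in alternatives (limma adjusted p). In the wild type, NAC014 passed with dim probe sets left out (0.0429), with its 2 groups alone (0.0305) and without either dTLec control array (0.029), and BZIP34 with the trended prior (0.0395), with its 2 groups alone (0.0192), without wild-type control replicate 1 (0.049) and without either dTLec systemic array (0.0176). On the mean effect, NAC014 passed with dim probe sets left out (0.0445) and without dTLec control replicate 1 (0.0242), BHLH101 also without that array (0.0276), bZIP42 with the trended prior (0.0441) and WRKY47 without dTLec systemic replicate 1 (0.0287). The median differences per family moved by less than the spread between replicates in 108 of 120 recalculations. Part of the 120 could not move, namely averaging probe sets, the annotation's symbols and leaving out an array of the other genotype. The count therefore overstates the stability of these medians. Median centring moved the median response of all probe sets by 0.02 in the wild type and cyclic loess by 0.04. Over all probe sets, 1344 passed as higher and 1372 as lower in the wild type, 1418 and 1170 after centring, and 1563 and 1053 after loess. The cause of these changes was not tested.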
